A study of Mus musculus with 32 samples.

Results

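The 9 genes described here encode tumor necrosis factor (Tnf), interleukins of the interleukin 1 (IL-1) family (Il1a, Il1b and Il18), the antagonists that hold these interleukins back (Il1rn and Il18bp), and receptors for them (Tnfrsf1a, Tnfrsf1b and Il1rap). They were taken from the arrays by gene name, without regard to their values. All 9 genes were on the array, with 12 probes, and all 9 were among the 16033 genes tested. Bone marrow-derived macrophages (BMDMs), grown from mouse bone marrow with the growth factor M-CSF, came either from WT mice or from Ifnar1-/- mice. In the latter 1 chain of the receptor for type I interferons is missing. The sample labels give the strain of both genotypes as C57BL/6. Cells of each genotype were left untreated or were kept for 6 h with zVAD alone, with LPS or IFNβ, with either of these and zVAD, or with either of these, zVAD and Nec-1. LPS comes from bacteria and acts on TLR4, IFNβ is a type I interferon, zVAD blocks caspases, and Nec-1 blocks RipK1, a kinase needed for necroptosis. By the sample labels the dose was 100 ng/mL of LPS and 1000 U/mL of IFNβ, while the methods and figure legends of the study give other doses. Each of the 16 groups, from 8 treatments of 2 genotypes, has 2 arrays. The labels do not say whether the 2 arrays of a group came from separate mice or cultures, so every p-value measures the spread between arrays.

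TNF and the interleukins of the IL-1 family are cytokines that macrophages release after they sense microbes or cell damage. TNF acts through the receptors TNFR1 (Tnfrsf1a), whose complex can lead to survival, apoptosis or necroptosis, and TNFR2 (Tnfrsf1b). IL-1α (Il1a) and IL-1β (Il1b) bind a receptor that needs the accessory chain IL-1RAcP (Il1rap), and the receptor antagonist (Il1rn) occupies the same receptor without signaling. IL-18 (Il18) is held in a soluble complex by the IL-18 binding protein (Il18bp). IL-1β and IL-18 are made as precursors that caspase-1 cuts.

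Levels are given as quantile-normalized log2 intensity of 1 probe per gene, so that a difference of 1 stands for a doubling, and levels of different genes cannot be set against each other. The arrays lay on 4 slides, each with the 8 treatments of 1 genotype at 1 replicate number. Genotype and slide therefore cannot be told apart within 1 treatment, whereas a change with treatment within a genotype can. Of the spots, 55.5% to 78.2% were well above background on the WT arrays and 45.4% to 62.1% on the Ifnar1-/- arrays. Ifnar1 had 3 probes, and whether they lie in the deleted part of the gene is not known here. The Ifnar1-/- arrays lay below the WT arrays without overlap for 2 of them (5.82 to 7.33 against 7.90 to 10.24, and 7.28 to 8.73 against 9.94 to 11.87) and within their range for the third. The 8 macrophage markers found on the array, Csf1r, Cd68 and Lyz2 among them, were well above background on all 32 arrays. Of 22 markers of other cell types, 10 were too, the T cell marker Cd3e and the granulocyte genes Elane and S100a8 among them, while 6, such as Cd3g, Xcr1 and Ncr1, were so on 13 arrays or fewer. The part of such cells in the results was not tested. In these bulk samples, fewer cells of a type and less RNA per cell cannot be told apart.

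One group stood apart from the rest. The 2 Ifnar1-/- LPS+zVAD+Nec-1 arrays had a Pearson correlation of 0.947 across genes, against 0.973 to 0.991 within the other 15 groups. Replicate 1 correlated best with the mean of the Ifnar1-/- LPS arrays (0.982), and replicate 2 with the mean of the Ifnar1-/- IFNβ+zVAD+Nec-1 arrays (0.993), above its 0.934 with LPS+zVAD. Tnf stood at 15.96 on replicate 1 and at 9.99 on replicate 2, and Il1b at 15.41 and 5.34. Because all groups share 1 estimate of the spread, this pair also enters the error in every comparison. It widens the error most for Tnf, Il1a and Il1b, and less for others such as Il18 and Tnfrsf1b. For Il1rap, whose 2 arrays here agree, it does not (SE 0.78 with the pair and 0.80 without, WT LPS against untreated). Whether replicate 2 holds the treatment its label gives was not tested, and every value of this group depends on it. In the comparisons that do not use the pair, all 73 calls held when both arrays were left out, a setting chosen after seeing the data, and 27 further ones were made.

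The probes lie on the mm9 assembly, in the transcripts that the array design names. Tnf was read at chr17:35336795-35336854 on the minus strand. For interleukin 1, Il1a was read at chr2:129125994-129126053 and Il1b at chr2:129190347-129190406, both on the minus strand, and the antagonist Il1rn at chr2:24205094-24205153 on the plus strand. Il18 was read at chr9:50389761-50389820 on the plus strand and Il18bp at chr7:109164100-109164159 on the minus strand. Of the receptors, Tnfrsf1a was read at chr6:125312376-125312435 on the plus strand, Tnfrsf1b at chr4:144802359-144802418 on the minus strand and Il1rap at chr16:26701498-26701557 on the plus strand. Tnfrsf1a had a second probe and Il1rap 2 more. Every gene was well above background on 30 or more of the 32 arrays except Il1a, which was so on 21.

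The 250 bases before each start site were read from RefSeq (GRCm38.p6, another build than that of the probes), and all 9 genes had an entry, with 11 start sites in all. Interferon signaling acts on DNA through the ISRE and GAS elements, and both strands were searched for GAAA, any 2 bases and GAAA again (ISRE-like) and for TTCNNNGAA (GAS-like), whose matches do not overlap in the windows shown. The first pattern was in 2.98% of all 32851 promoter windows of this length and in 1 of the 11 of these genes. The second was in 7.02% of all windows and in 2 of the 11. Those of Il18bp and Tnfrsf1a are shown because both genes were higher with IFNβ in WT cells and differed between the genotypes in that change, and that of Tnfrsf1b because it holds both patterns while the gene was not called with IFNβ. Il1rn was also higher with IFNβ and differed between the genotypes, and its 3 windows, which held neither pattern, are not shown. Capitals mark a match, which is a description of the letters and not of a bound site.
Il18bp (chr7:102018233-102018482, minus strand): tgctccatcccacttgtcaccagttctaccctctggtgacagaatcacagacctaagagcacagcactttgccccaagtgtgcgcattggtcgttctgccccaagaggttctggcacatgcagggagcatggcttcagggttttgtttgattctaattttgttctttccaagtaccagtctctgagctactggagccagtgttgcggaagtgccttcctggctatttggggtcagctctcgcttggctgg
Tnfrsf1a (chr6:125349473-125349722, plus strand): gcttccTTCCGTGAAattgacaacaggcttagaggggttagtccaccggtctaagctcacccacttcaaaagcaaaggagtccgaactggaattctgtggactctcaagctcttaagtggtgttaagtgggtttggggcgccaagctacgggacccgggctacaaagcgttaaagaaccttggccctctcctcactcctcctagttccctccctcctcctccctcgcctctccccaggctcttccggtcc
Tnfrsf1b (chr4:145246871-145247120, minus strand): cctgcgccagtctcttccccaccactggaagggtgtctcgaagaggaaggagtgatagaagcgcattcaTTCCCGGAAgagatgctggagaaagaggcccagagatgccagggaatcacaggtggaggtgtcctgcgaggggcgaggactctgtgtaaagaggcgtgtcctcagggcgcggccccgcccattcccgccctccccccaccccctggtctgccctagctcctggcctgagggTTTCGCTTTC
In the Il18bp window neither pattern was found. The Tnfrsf1a window held a GAS-like match near its upstream end. The Tnfrsf1b window held a GAS-like match and, at its end next to the start site, an ISRE-like match that reads on the opposite strand.

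In WT cells 40 of 63 changes against untreated cells were called, all of them higher. In Ifnar1-/- cells 10 of 63 were called, all of them higher and all with LPS or LPS+zVAD. LPS raised all 9 genes in WT cells, with a median log2 fold change of 3.12 and a range of 1.04 to 9.92 (the last for Il1a, dim when untreated), where 41.7% of all genes tested were called in either direction and the median of all genes was -0.09. LPS+zVAD raised 7 (background 51.3%), LPS+zVAD+Nec-1 8 (41.5%), IFNβ 5 (36.1%), IFNβ+zVAD 6 (38.4%) and, with Nec-1 added to it, 5 (32.6%). With zVAD alone 0 of the 9 were called by limma, where 0.00624% of all genes were called and 2 of the 9 had an unadjusted p under 0.05. In Ifnar1-/- cells LPS raised 6 of the 9 (background 25.2%) and LPS+zVAD 4 (29.1%). No gene of the 9 was called by limma in these cells with IFNβ (background 0%), zVAD (0%), LPS+zVAD+Nec-1 (1.33%), IFNβ+zVAD (0.00624%) or IFNβ+zVAD+Nec-1 (1.78%), and the number with an unadjusted p under 0.05 was 0, 0, 2, 3 and 1 in that order.

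**Figure D1:**
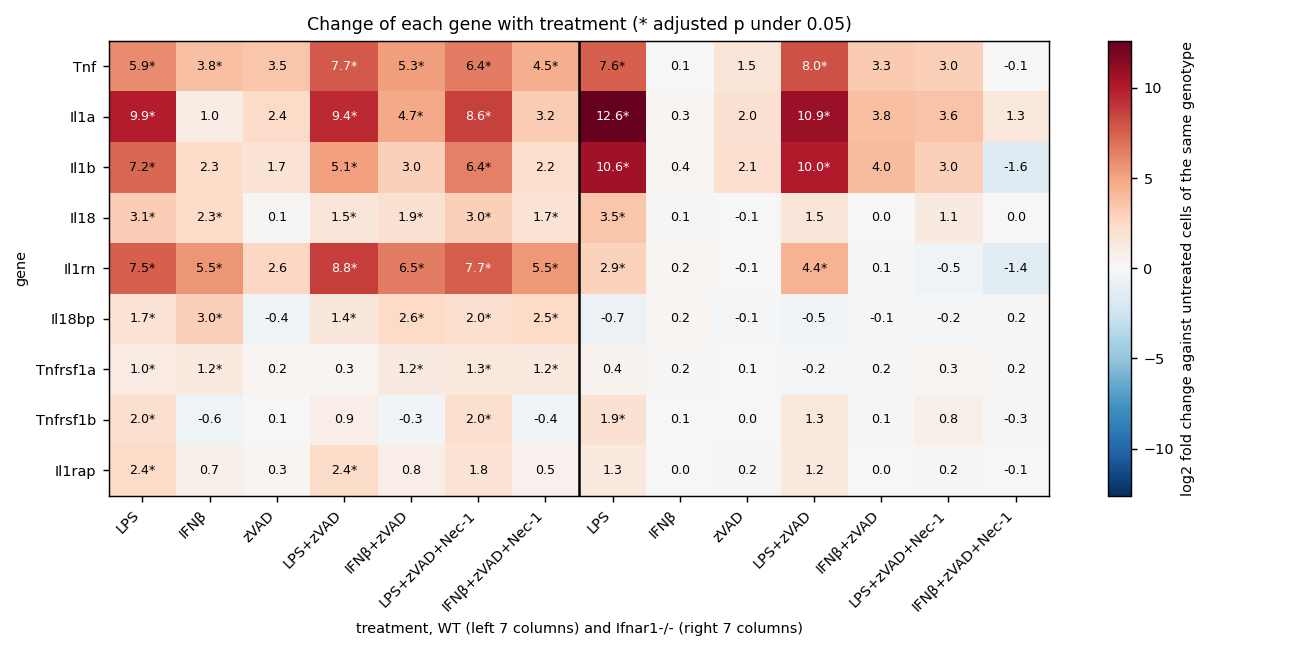
Log2 fold change of each of the 9 genes (rows) against untreated cells of the same genotype, for the 7 treatments in WT (left) and Ifnar1-/- BMDMs (right). Colour and printed number give the change, and an asterisk marks an adjusted p under 0.05 (limma). All 9 genes carry an asterisk for LPS in WT cells, and in Ifnar1-/- cells asterisks stand in the LPS and LPS+zVAD columns only.

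Tnf, the gene of TNFα, was low in untreated cells of both genotypes and highest with LPS+zVAD. In untreated WT cells it stood at 10.48 and 10.24, with LPS at 16.74 and 15.80, and with LPS+zVAD at 18.24 and 17.94. In Ifnar1-/- cells the corresponding arrays were at 9.90 and 10.13, at 17.51 and 17.62, and at 18.02 and 18.09. The LPS+zVAD arrays of the genotypes thus overlapped, and both lay above every other array. Tnf rose with LPS by 5.91 log2 in WT (60.3-fold, SE 1.12, adjusted p = 0.000322) and by 7.55 in Ifnar1-/- cells (188-fold, adjusted p = 0.000133). With LPS+zVAD it rose by 7.73 (adjusted p = 1.14e-05) and 8.04 (adjusted p = 6.25e-05). The difference between the genotypes in these changes was not called.

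IFNβ raised Tnf in WT cells, to 13.87 and 14.46, while the Ifnar1-/- arrays with IFNβ, at 9.85 and 10.36, overlapped the untreated ones. The rise in WT was 3.81 log2 (14.0-fold, SE 1.12, adjusted p = 0.0119), and the call was lost without WT untreated replicate 2 (adjusted p = 0.0643) or WT IFNβ replicate 2 (adjusted p = 0.0696). The difference between the genotypes in this change was -3.71 (SE 1.58, adjusted p = 0.11). It was called once both Ifnar1-/- LPS+zVAD+Nec-1 arrays were left out (adjusted p = 0.00192) or with only the arrays compared (adjusted p = 0.00211). With zVAD added to IFNβ, Tnf stood at 15.44 and 15.90 in WT and at 13.31 and 13.40 in Ifnar1-/- cells. The latter pair lay above both Ifnar1-/- arrays with IFNβ alone, at a change from untreated of 3.35 log2 (adjusted p = 0.919, and 0.0400 without the discordant pair). Nec-1 on top brought Ifnar1-/- cells to 9.91 and 9.96, within the untreated level, and left WT cells at 14.76 and 15.04. For this last treatment the change of Tnf differed between the genotypes by -4.62 (SE 1.58, adjusted p = 0.0482), a call lost without any 1 of its 8 arrays (adjusted p from 0.0925 to 0.121). The difference from IFNβ+zVAD to IFNβ+zVAD+Nec-1 in Ifnar1-/- cells was -3.42 log2, not called with all arrays (adjusted p = 0.182). It was called without the discordant pair (adjusted p = 0.00127) or with only the arrays compared (adjusted p = 0.0489).

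zVAD alone brought Tnf in WT cells to 13.51 and 14.22, above both untreated arrays, by 3.51 log2. It was not called with all arrays (adjusted p = 0.59) and was called without the discordant pair (adjusted p = 0.0235). The 2 Ifnar1-/- zVAD arrays disagreed, at 12.86 and 10.12. In the order of the 16 group means, 10 of the 15 pairs of neighbouring groups had overlapping arrays.

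**Figure D2:**
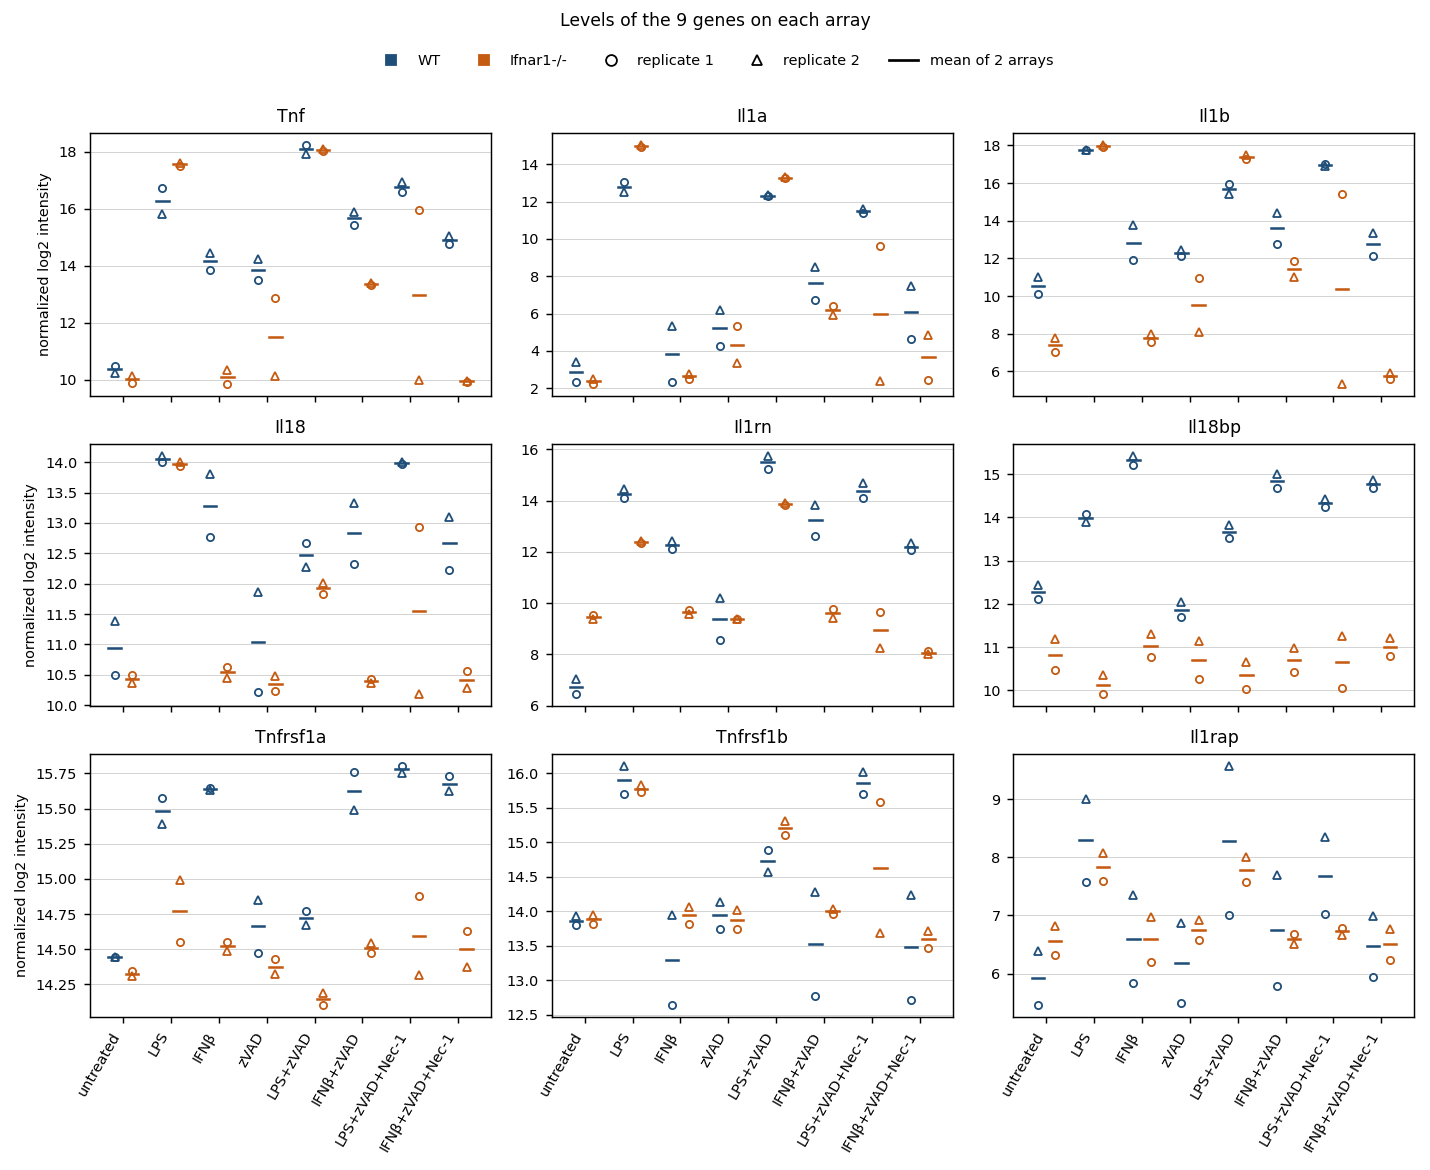
Normalized log2 intensity of the 9 genes (panels; axis ranges differ between panels) on each of the 32 arrays, by treatment, with WT in blue and Ifnar1-/- in orange, replicates as circles and triangles, and the mean of 2 arrays as a line. The 2 Ifnar1-/- LPS+zVAD+Nec-1 arrays lie far apart for Tnf, Il1a and Il1b, and for Il18bp every WT array lies above every Ifnar1-/- array.

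Il1a, the gene of IL-1α, which cells hold until it is released on damage, was near background in untreated cells and rose with LPS in both genotypes. It stood at 2.32 and 3.42 in untreated WT cells, well above background on 1 of the 2 arrays, and at 2.24 and 2.49 in untreated Ifnar1-/- cells, on neither. With LPS it stood at 13.07 and 12.52 in WT and at 14.92 and 15.03 in Ifnar1-/- cells, where both arrays lay above both WT arrays. In WT the fitted rise was 9.92 log2 (SE 1.54, adjusted p = 5.31e-05), and 6.36 log2 under normexp background correction, which lifts dim signals, so its size depends on how the dim untreated signal is handled. In Ifnar1-/- cells Il1a rose with LPS (adjusted p = 4.19e-05) and with LPS+zVAD (adjusted p = 7.43e-05). With quantile normalization alone the rises were at least 1577-fold and at least 486-fold. These bounds set the mean of the treated arrays against the lowest signal of any probe well above background on each untreated array. They do not hold under every alternative. The lowest fitted rise was 8.76 log2 with LPS and 7.01 log2 with LPS+zVAD (normexp), both below these bounds.

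With IFNβ alone Il1a was dim, at 2.33 and 5.34 in WT. Adding zVAD brought it to 6.72 and 8.51, well above background on both arrays, and to 6.39 and 5.95 in Ifnar1-/- cells. The WT change from untreated was 4.75 log2 (SE 1.54, adjusted p = 0.0207). It was no longer called without either untreated array (adjusted p = 0.113 and 0.0501) or without WT IFNβ+zVAD replicate 2 (adjusted p = 0.144), and it shrank to 1.82 log2 with normexp background correction (adjusted p = 0.0538). With IFNβ+zVAD+Nec-1 the WT arrays disagreed, at 4.65 and 7.50, and the change of 3.21 log2 was called without the discordant pair (adjusted p = 0.0191) and not with all arrays (adjusted p = 0.125). Neighbouring groups overlapped in 8 of 15 pairs.

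Il1b, the gene of IL-1β, reached its highest levels with LPS in both genotypes. Untreated WT arrays were at 10.10 and 11.01 and untreated Ifnar1-/- arrays at 7.03 and 7.79. This difference of -3.14 log2 was not called with all arrays (adjusted p = 0.349). It was called without the discordant pair (adjusted p = 0.00833) or with only the arrays compared (adjusted p = 0.0345). With LPS the arrays came to 17.75 and 17.76 in WT and to 17.92 and 18.02 in Ifnar1-/- cells, so that the 4 arrays lay within a narrow range after LPS. The rise was 7.20 log2 in WT (148-fold, SE 1.80, adjusted p = 0.00332) and 10.56 in Ifnar1-/- cells (adjusted p = 0.000383). The changes differed between the genotypes by 3.35 (adjusted p = 0.554, 0.0485 without the pair and 0.0183 with only the arrays compared).

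With LPS+zVAD the WT arrays of Il1b were at 15.93 and 15.44 and the Ifnar1-/- arrays at 17.26 and 17.49. Both WT values lay below the WT LPS arrays, a difference of -2.08 log2 that was not called with all arrays (adjusted p = 0.431). It was called without the discordant pair (adjusted p = 0.0320) or with only the arrays compared (adjusted p = 0.0290). The rise from untreated WT cells was 5.13 log2 (adjusted p = 0.0228), a call lost without any 1 of its 4 arrays (adjusted p from 0.0559 to 0.102). The change with LPS+zVAD was larger in Ifnar1-/- cells by 4.84 log2 (adjusted p = 0.226, 0.00314 without the pair and 0.00550 with only the arrays compared). In WT cells LPS+zVAD+Nec-1 gave 17.02 and 16.88 (6.40 log2 above untreated, adjusted p = 0.00786, and 0.0515 without WT untreated replicate 1).

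IFNβ brought Il1b to 11.91 and 13.75 in WT cells, above both untreated arrays, while in Ifnar1-/- cells it stood at 7.59 and 8.01. The WT change of 2.27 log2 (adjusted p = 0.362) was called without the discordant pair (adjusted p = 0.0193). So were those with IFNβ+zVAD (3.04, adjusted p = 0.201, and 0.00267 without the pair) and with IFNβ+zVAD+Nec-1 (2.19, adjusted p = 0.399, and 0.0260 without the pair). The change with IFNβ+zVAD was also called with only the arrays compared (adjusted p = 0.0386). IFNβ+zVAD gave 11.87 and 11.03 in Ifnar1-/- cells and the addition of Nec-1 gave 5.61 and 5.93, below the untreated arrays. That difference of -5.68 log2 was called without the pair (adjusted p = 0.000284) and not with all arrays (adjusted p = 0.166). With Nec-1, Il1b was well above background on 1 of these 2 Ifnar1-/- arrays, so -5.68 is not an exact size. Of the 15 pairs of neighbouring groups, 6 overlapped.

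Il18, the gene of the IL-18 precursor, rose with LPS in both genotypes, to overlapping levels, and with IFNβ in WT cells. Untreated arrays were at 10.49 and 11.38 in WT and at 10.49 and 10.36 in Ifnar1-/- cells. With LPS they were at 14.00 and 14.11 in WT and at 13.93 and 14.00 in Ifnar1-/- cells. The rises were 3.12 log2 (8.69-fold, SE 0.63, adjusted p = 0.000595) and 3.54 (11.6-fold, adjusted p = 0.000527). IFNβ brought WT cells to 12.76 and 13.81, a rise of 2.35 log2 (adjusted p = 0.00672), and left Ifnar1-/- cells at 10.64 and 10.45. The WT call was lost without WT untreated replicate 1 (adjusted p = 0.0778) or WT IFNβ replicate 2 (adjusted p = 0.0834).

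Il18 with LPS+zVAD stood at 12.67 and 12.27 in WT cells and at 11.83 and 12.01 in Ifnar1-/- cells, without overlap with the LPS arrays. The differences of -1.58 log2 (adjusted p = 0.0598) and -2.04 (adjusted p = 0.0510) were called with the slide in the model (adjusted p = 0.0259 and 0.0159) or without the discordant pair (adjusted p = 0.00951 and 0.00610). They were also called with only the arrays compared (adjusted p = 0.0381 and 0.00857). The WT difference was called with a common 75th percentile (adjusted p = 0.0350), and that in Ifnar1-/- cells with the authors' values (adjusted p = 0.00140). Nec-1 brought WT cells back to 13.97 and 14.00, by 1.51 log2, which was called with the slide in the model (adjusted p = 0.0367) or without the discordant pair (adjusted p = 0.0152) and not otherwise (adjusted p = 0.0829).
Against untreated WT cells Il18 was higher with LPS+zVAD+Nec-1 by 3.05 log2 (adjusted p = 0.000745). Its rises with LPS+zVAD (1.54, adjusted p = 0.0492), IFNβ+zVAD (1.90, adjusted p = 0.0233) and IFNβ+zVAD+Nec-1 (1.73, adjusted p = 0.0425) rested on single arrays. The first was lost without WT untreated replicate 1 (adjusted p = 0.265) or either LPS+zVAD array (0.184 and 0.0884), the second without WT untreated replicate 1 (0.173) or WT IFNβ+zVAD replicate 2 (0.190), and the last without any 1 of its 4 arrays (0.0526 to 0.253). The second and last were also lost in a fit of only the arrays compared (0.0580 and 0.0786). Neighbouring groups overlapped in 13 of 15 pairs. With LPS+zVAD its difference from untreated Ifnar1-/- cells was 1.50 log2 (adjusted p = 0.0846, and 0.0375 with the slide in the model). It was also called with only the arrays compared (adjusted p = 0.00527), under normexp (0.0465), with the authors' values (0.000645) or without the discordant pair (0.0163).

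Il1rn, the gene of the IL-1 receptor antagonist, rose in WT cells with each treatment except zVAD alone, and its change differed between the genotypes in each of these. In untreated cells it stood at 6.44 and 7.03 in WT and at 9.53 and 9.37 in Ifnar1-/- cells. LPS brought WT cells to 14.11 and 14.44 and Ifnar1-/- cells to 12.35 and 12.41. IFNβ brought WT cells to 12.12 and 12.43, whereas the Ifnar1-/- arrays with IFNβ were at 9.74 and 9.56. The order of the genotypes was thus turned between untreated and treated cells, with no overlap in any of these 3 conditions.

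In WT cells Il1rn rose by 7.54 log2 with LPS (186-fold, SE 0.46, adjusted p = 3.77e-09), by 5.54 with IFNβ (46.6-fold, adjusted p = 5.23e-08), by 8.75 with LPS+zVAD (adjusted p = 4.12e-10) and by 6.50 with IFNβ+zVAD (adjusted p = 9.63e-09). With Nec-1 as well the rises were 7.65 and 5.46 log2. The calls in Ifnar1-/- cells were rises of 2.92 with LPS (7.59-fold, adjusted p = 0.000233) and 4.43 with LPS+zVAD (21.5-fold, adjusted p = 4.54e-06). These rises were called under every alternative and with each array left out.
zVAD alone gave 8.56 and 10.19 in WT cells, above both untreated arrays, by 2.64 log2. That change (adjusted p = 0.0780) was called with the slide in the model (adjusted p = 0.00496), without the discordant pair (adjusted p = 0.0235) or without WT zVAD replicate 1 (adjusted p = 0.00638). The Ifnar1-/- zVAD arrays were at 9.37 and 9.38. Among the 15 pairs of neighbouring groups 9 overlapped. On the slide with replicate 2, Il1rn lay above replicate 1 in all 8 WT treatments.

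Il18bp, the gene of the IL-18 binding protein, rose with LPS and with IFNβ in WT cells and was called higher in no treatment of Ifnar1-/- cells. Untreated WT arrays were at 12.12 and 12.44, LPS arrays at 14.08 and 13.90 and IFNβ arrays at 15.20 and 15.43. The untreated Ifnar1-/- arrays were at 10.46 and 11.19, LPS arrays at 9.90 and 10.35 and IFNβ arrays at 10.76 and 11.30. Over all treatments the WT arrays ranged from 11.69 to 15.43 and the Ifnar1-/- arrays from 9.90 to 11.30, so the genotypes did not overlap, though genotype and slide cannot be told apart here. In WT the rise was 1.71 log2 with LPS (3.27-fold, SE 0.37, adjusted p = 0.00109) and 3.03 with IFNβ (8.19-fold, adjusted p = 4.51e-06). It was 1.39 with LPS+zVAD (adjusted p = 0.00410), 2.55 with IFNβ+zVAD (adjusted p = 2.91e-05), and 2.05 and 2.49 with Nec-1 as well. Ifnar1-/- cells differed from untreated by -0.69 log2 with LPS and by -0.47 with LPS+zVAD, both called with the slide in the model (adjusted p = 0.00340 and 0.0306) and not without it (adjusted p = 0.198 and 0.388). On the slide with replicate 2 it lay above replicate 1 in all 8 Ifnar1-/- treatments. Of the neighbouring groups 8 of 15 pairs overlapped.

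Tnfrsf1a, the gene of TNFR1, moved by little and with a small error. Untreated arrays were at 14.45 and 14.45 in WT and at 14.34 and 14.31 in Ifnar1-/- cells. In WT cells IFNβ gave 15.65 and 15.63 and LPS 15.58 and 15.39, and LPS+zVAD, at 14.77 and 14.67, lay between these and the untreated arrays. The rise with IFNβ was 1.19 log2 (2.29-fold, SE 0.19, adjusted p = 6.25e-05) and that with LPS 1.04 (2.05-fold, adjusted p = 0.000192, and 1.74 log2 with each array set to a common 75th percentile). IFNβ+zVAD (1.18, adjusted p = 6.60e-05) also raised it, as did LPS+zVAD+Nec-1 (1.33, adjusted p = 1.68e-05) and IFNβ+zVAD+Nec-1 (1.23, adjusted p = 5.61e-05). The Ifnar1-/- arrays were at 14.55 and 14.49 with IFNβ and at 14.55 and 14.99 with LPS. The latter difference of 0.45 log2 (adjusted p = 0.0883) was called without the discordant pair (adjusted p = 0.0442) or with a common 75th percentile (0.77, adjusted p = 0.0130). Neighbouring groups overlapped in 11 of 15 pairs. The second probe, at chr6:125311922-125311981, rose by 1.12 log2 with LPS (adjusted p = 0.00124) and by 1.20 with IFNβ (adjusted p = 0.000862) in WT cells. With zVAD added to LPS it was lower in WT cells (-0.68, adjusted p = 0.0389) and not called in Ifnar1-/- cells (-0.70, adjusted p = 0.0885). Between the genotypes it was not called with LPS+zVAD (-0.27, adjusted p = 0.411) or in untreated cells (0.38, adjusted p = 0.429). These values come from the fit of all retained probes.

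Tnfrsf1b, the gene of TNFR2, rose with LPS in both genotypes and was not called with IFNβ. Untreated arrays were at 13.80 and 13.93 in WT and at 13.82 and 13.95 in Ifnar1-/- cells. LPS brought them to 15.70 and 16.11 and to 15.73 and 15.83. The rises were 2.04 log2 in WT (4.10-fold, SE 0.55, adjusted p = 0.00556) and 1.90 in Ifnar1-/- cells (3.72-fold, adjusted p = 0.0152), the latter lost without any 1 of its 4 arrays (adjusted p from 0.0631 to 0.0822). With IFNβ the WT arrays disagreed, at 12.64 and 13.94. The same held for IFNβ+zVAD (12.77 and 14.28) and IFNβ+zVAD+Nec-1 (12.72 and 14.24), in each case with the array of the first WT slide lower. LPS+zVAD+Nec-1 raised Tnfrsf1b in WT cells by 1.995 log2 (adjusted p = 0.00661). LPS+zVAD gave 14.89 and 14.57 in WT cells, 0.86 log2 above untreated and -1.17 from LPS. Neither was called with all arrays, nor without the discordant pair (adjusted p = 0.125 and 0.0534). In Ifnar1-/- cells LPS+zVAD gave 15.11 and 15.31, a difference from untreated of 1.33 log2 (adjusted p = 0.0779). This was called with the slide in the model (adjusted p = 0.0318), with only the arrays compared (0.00695) or without the discordant pair (0.0346). Neighbouring groups overlapped in 12 of 15 pairs.

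Il1rap, the gene of the accessory chain shared by IL-1 family receptors, rose with LPS and LPS+zVAD in WT cells. Its arrays stood at 5.46 and 6.39 when untreated, at 7.58 and 9.01 with LPS and at 7.01 and 9.57 with LPS+zVAD. The rises were 2.37 log2 (5.17-fold, SE 0.78, adjusted p = 0.0193) and 2.36 (adjusted p = 0.0156). The first was lost without WT untreated replicate 1 (adjusted p = 0.139) or WT LPS replicate 2 (0.180), and the second without WT untreated replicate 1 (0.118) or WT LPS+zVAD replicate 2 (1.08 log2, 0.309). Without WT LPS+zVAD replicate 1 the second was 3.65 log2 (adjusted p = 0.00136), in a fit of only the arrays compared its adjusted p was 0.0950, and under normexp the rises were 1.50 and 1.49 log2. Replicate 2 lay above replicate 1 in all 8 WT treatments, and with the slide in the model Il1rap was also called with LPS+zVAD+Nec-1 (1.76 log2, adjusted p = 8.74e-05, against 0.0785 without the slide) and IFNβ+zVAD (0.82, adjusted p = 0.0269, against 0.453) in WT cells. Ifnar1-/- arrays were at 6.32 and 6.82 when untreated, at 7.59 and 8.08 with LPS and at 7.57 and 8.01 with LPS+zVAD. These changes of 1.27 and 1.22 log2 (adjusted p = 0.271 and 0.266) were called with the slide in the model (adjusted p = 0.00255 and 0.00288) or in a fit of only the arrays compared (adjusted p = 0.0286 and 0.0298). Neighbouring groups overlapped in 14 of 15 pairs.
The 3 probes of Il1rap gave different values. The probe designed on transcript variant 1 (chr16:26716515-26716574) rose by 2.30 log2 with LPS in WT cells (adjusted p = 0.000817), close to the probe on transcript variant 2 used here. In WT cells the variant 1 probe was also called with LPS+zVAD (2.04, adjusted p = 0.00149) and LPS+zVAD+Nec-1 (1.76, adjusted p = 0.0064). It was called as well with IFNβ+zVAD (1.44, adjusted p = 0.0238) and IFNβ+zVAD+Nec-1 (1.62, adjusted p = 0.0146). The probe on an Ensembl transcript (chr16:26725291-26725350) changed by -0.14 with LPS (adjusted p = 0.891). These adjusted p-values come from the fit of all retained probes.

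**Figure D3:**
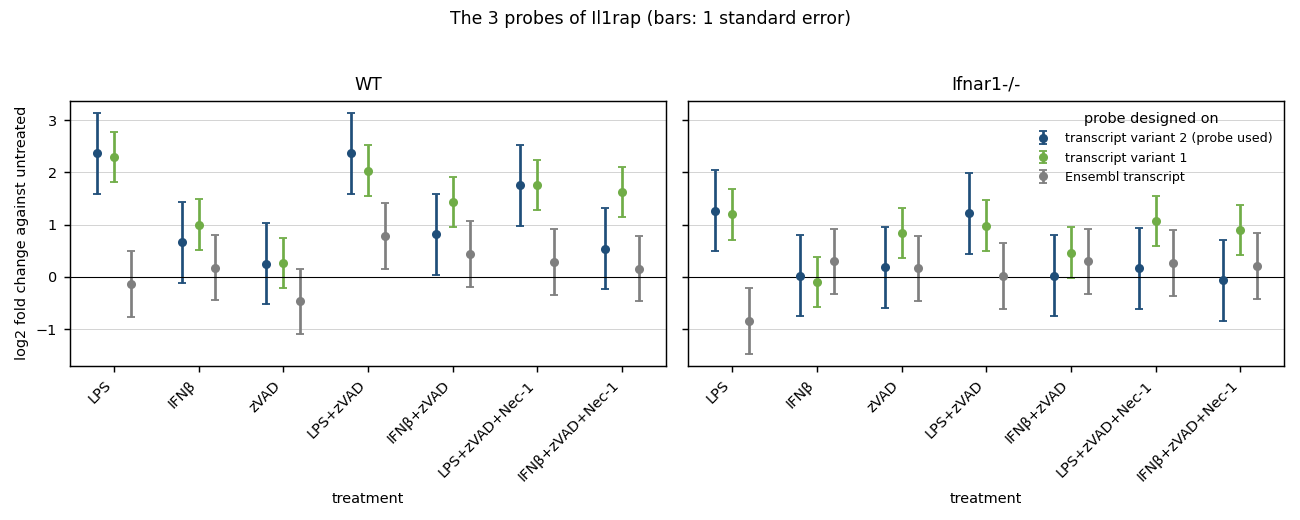
Log2 fold change against untreated cells (points; bars, 1 standard error) of the 3 Il1rap probes for each treatment, in WT (left) and Ifnar1-/- BMDMs (right). With LPS and LPS+zVAD in WT cells the probes on transcript variants 1 and 2 lie between 2.04 and 2.37, and the probe on the Ensembl transcript at -0.14 and 0.78.

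The addition of zVAD to LPS opens the way to necroptosis by blocking caspases, and the comparison with LPS alone asks what zVAD adds. Of 36 differences over both agents and genotypes 3 were called, and a fit of only the arrays compared ended all 3 (adjusted p from 0.0745 to 0.133). That fit called others instead. With zVAD added to LPS these included Il1b (-2.08, adjusted p = 0.0290) and Il18 (-1.58, adjusted p = 0.0381) in WT cells. In Ifnar1-/- cells they included Il1rn (1.50, adjusted p = 0.0111) and Il18 (-2.04, adjusted p = 0.00857). In WT cells (background 34.6%) Tnfrsf1a was lower with LPS+zVAD than with LPS by -0.77 log2 (SE 0.19, adjusted p = 0.00318) and Il1rn higher by 1.22 (adjusted p = 0.0499). The second call was lost without any 1 of its 4 arrays (adjusted p from 0.0574 to 0.277). Among Ifnar1-/- cells (background 8.53%) Tnfrsf1a was lower by -0.62 (adjusted p = 0.0429), lost without Ifnar1-/- LPS replicate 2 (-0.40, adjusted p = 0.402) or either LPS+zVAD array (0.268 and 0.123). Il1rn, at 13.84 and 13.92 against 12.35 and 12.41 with LPS, differed there by 1.50 log2 (adjusted p = 0.0519, and 0.00411 with the slide in the model). It was also called under normexp (adjusted p = 0.0127), with the authors' values (0.0196) or without the discordant pair (0.0236). Tnf was at a difference of 1.82 log2 in WT cells (adjusted p = 0.235, and 0.0131 without the discordant pair). With zVAD added to IFNβ, 0 of the 9 genes were called by limma in either genotype, where 0% of all genes were called in WT and 0.00624% in Ifnar1-/- cells, and 1 and 2 of the 9 had an unadjusted p under 0.05. Without the discordant pair 8 of the 36 changes were called.

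The addition of Nec-1 asks which of these levels depend on RipK1 activity. In WT cells, adding Nec-1 to LPS+zVAD raised Tnfrsf1a back to 15.80 and 15.76, by 1.06 log2 (2.08-fold, SE 0.19, adjusted p = 0.000291), the 1 call among the 9 genes (background 28.4%), with an adjusted p of 0.0681 in a fit of only the arrays compared. Il1rn differed by -1.10 log2 (adjusted p = 0.0867), which was called with the slide in the model (adjusted p = 0.0116), with arrays set to a common 75th percentile (-1.52, adjusted p = 0.0374), under normexp (adjusted p = 0.0460) or without the discordant pair (adjusted p = 0.0498). Il18bp differed by 0.66 (adjusted p = 0.209, and 0.00405 with the slide in the model). Tnf stood at 16.61 and 16.95 with Nec-1, below both LPS+zVAD arrays (18.24 and 17.94), at a difference of -1.31 log2. It was not called with all arrays, nor without the discordant pair (adjusted p = 0.0771). Against untreated WT cells Tnf was still higher with LPS+zVAD+Nec-1, by 6.42 log2 (called). Adding Nec-1 to IFNβ+zVAD gave 0 calls by limma in WT cells, where 0% of all genes were called and 1 of the 9 had an unadjusted p under 0.05. It also gave 0 in Ifnar1-/- cells, against a background of 1.61% and with 3 of the 9 at an unadjusted p under 0.05. There Il1rn, at 8.13 and 7.99 with Nec-1 and at 9.78 and 9.42 without, differed by -1.54 log2 (adjusted p = 0.136, and 0.0114 with the slide in the model). Its difference from untreated Ifnar1-/- cells was -1.39 (adjusted p = 0.189, and 0.0186 with the slide in the model).

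Adding Nec-1 to LPS+zVAD in Ifnar1-/- cells lowered 4 of the 9 genes (background 19.4%), and the size of 3 of these falls rested on the discordant pair. Il1rn stood at 13.84 and 13.92 with LPS+zVAD and at 9.66 and 8.25 with Nec-1, so that both lay close to or below the untreated 9.53 and 9.37. Its change was -4.92 log2 (30.4-fold lower, SE 0.46, adjusted p = 3.92e-06), -4.22 without replicate 2 (adjusted p = 7.10e-05) and -5.63 without replicate 1 (adjusted p = 7.33e-07). Tnf changed by -5.08 (adjusted p = 0.00413), by -2.09 without replicate 2 (adjusted p = 0.0581) and by -8.06 without replicate 1 (adjusted p = 3.13e-07). Il1a, at 9.63 and 2.38, changed by -7.28 (adjusted p = 0.00329), by -3.65 without replicate 2 (adjusted p = 0.0749) and by -10.90 without replicate 1 (adjusted p = 7.21e-06). Il1b changed by -7.00 (adjusted p = 0.0112), by -1.96 without replicate 2 (adjusted p = 0.196) and by -12.04 without replicate 1 (adjusted p = 1.46e-07). The Il1b call was also lost without either LPS+zVAD array (adjusted p = 0.0695 and 0.0600). Both arrays with Nec-1 lay below both without it for these 4 genes. With Nec-1, Il1a and Il1b were each well above background on 1 of the 2 arrays, so the values without replicate 1 are not exact sizes for these 2 genes. A fit of only the arrays compared ended all 4 calls (adjusted p of 0.326 for Tnf, 0.293 for Il1a, 0.377 for Il1b and 0.141 for Il1rn).
Tnfrsf1a in these cells differed by 0.73 log2 without replicate 2 (adjusted p = 0.0251) and by 0.17 without replicate 1 (adjusted p = 0.583), and Il18 by 1.003 (adjusted p = 0.301) and -1.75 (adjusted p = 0.0243). Il1rap differed by -1.06, called with the slide in the model (adjusted p = 0.0103) and not without it (adjusted p = 0.378), and stood at -1.12 without replicate 1 (adjusted p = 0.443) and -1.002 without replicate 2 (adjusted p = 0.616). Against untreated Ifnar1-/- cells, replicate 1 alone gave rises of 5.95 log2 for Tnf, 7.26 for Il1a, 8.00 for Il1b and 2.50 for Il18. Replicate 2 alone gave -0.019, 0.010, -2.07 and -0.25 in that order. Il1a was not well above background in the untreated cells, so its values are not exact sizes.

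The difference between the genotypes in the change with a treatment was tested as an interaction, which does not rest on the offset between their slides. Of 99 such differences 19 were called, and in all 19 the change was lower in Ifnar1-/- cells. They fell on Il1rn (7), Il18bp (6), Tnfrsf1a (4), Tnf (1) and Il1b (1). All differences in change against untreated cells share the untreated arrays of both genotypes, so they are not independent of each other. With LPS 2 of the 9 genes were called (background 6.63%), with IFNβ 3 (19.3%), with zVAD 0 (0%, and 1 of the 9 at an unadjusted p under 0.05), with IFNβ+zVAD 3 (19.8%), with IFNβ+zVAD+Nec-1 4 (18.5%), with LPS+zVAD 2 (16.3%) and with LPS+zVAD+Nec-1 3 (18.2%).

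For Il1rn the difference in change was -4.61 log2 with LPS (SE 0.66, adjusted p = 0.000296), -5.34 with IFNβ (adjusted p = 1.67e-05), -4.33 with LPS+zVAD (adjusted p = 0.000226) and -6.35 with IFNβ+zVAD (adjusted p = 3.29e-06). With Nec-1 as well it was -8.15 and -6.85. Part of each value is the gap at rest, where Il1rn was higher in Ifnar1-/- cells by 2.72 log2. Taken within the slides of 1 replicate number, each of these values was negative for both numbers. For Il18bp the difference was -2.40 with LPS (SE 0.53, adjusted p = 0.00836), -2.83 with IFNβ (adjusted p = 0.000896), -1.85 with LPS+zVAD (adjusted p = 0.0203) and -2.67 with IFNβ+zVAD (adjusted p = 0.00153). Here the genotypes differed at rest in the same direction as after treatment. The LPS call was lost without Ifnar1-/- untreated replicate 2 (adjusted p = 0.0524) and the LPS+zVAD call without WT untreated replicate 1, Ifnar1-/- untreated replicate 2, WT LPS+zVAD replicate 2 or Ifnar1-/- LPS+zVAD replicate 1 (adjusted p from 0.0768 to 0.10). For Tnfrsf1a the difference was -0.998 with IFNβ (SE 0.26, adjusted p = 0.0116), -0.99 with IFNβ+zVAD (adjusted p = 0.0121, a call lost without WT IFNβ+zVAD replicate 1 at 0.0529), -1.06 with LPS+zVAD+Nec-1 (adjusted p = 0.00801) and -1.06 with IFNβ+zVAD+Nec-1 (adjusted p = 0.00851). For LPS+zVAD+Nec-1, which uses the discordant pair, Il1rn stood at -8.85 without replicate 1 and -7.45 without replicate 2, Il18bp at -1.61 and -2.83 and Tnfrsf1a at -1.34 and -0.78, all called, whereas a fit of only the arrays compared gave adjusted p of 0.102 for Il18bp and 0.125 for Tnfrsf1a. Without replicate 1 the difference was also called for Tnf (-6.44), Tnfrsf1b (-2.20), Il1a (-8.61), Il1b (-8.47) and Il18 (-3.30), and without replicate 2 for none of these. Set to a common 75th percentile, Tnfrsf1a differed by -1.53 with IFNβ, -1.59 with IFNβ+zVAD and -1.70 with LPS+zVAD+Nec-1. Il18 differed by -2.24 with IFNβ (adjusted p = 0.0884). This was called with the slide in the model (adjusted p = 0.0356), with only the arrays compared (0.0394) or without the discordant pair (0.0164). Without that pair Il18 was also called with IFNβ+zVAD (-1.92, adjusted p = 0.0358) and Il1b with IFNβ+zVAD+Nec-1 (-3.83, adjusted p = 0.0123). The Il1b difference was called with only the arrays compared as well (adjusted p = 0.0172). For Il1b this is not an exact size, since 1 of the 2 Ifnar1-/- IFNβ+zVAD+Nec-1 arrays was not well above background.

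**Figure D4:**
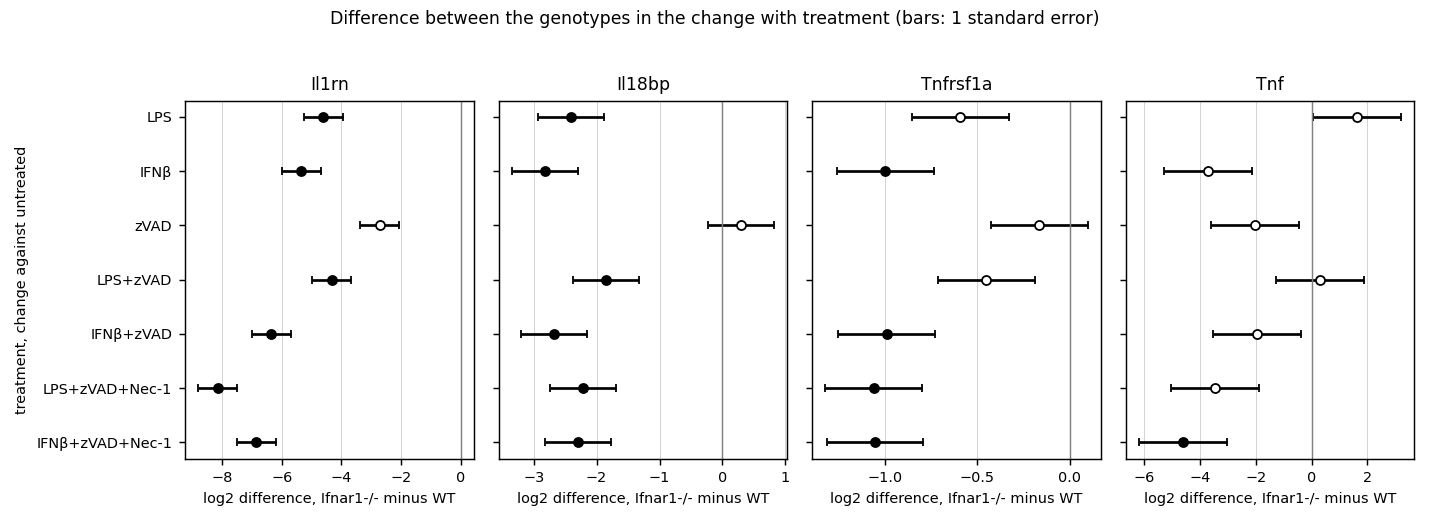
Difference in the change with treatment, Ifnar1-/- minus WT, on the log2 scale (points; bars, 1 standard error), for Il1rn, Il18bp, Tnfrsf1a and Tnf, with filled points at an adjusted p under 0.05 (limma). For Il1rn and Il18bp 6 of 7 points are filled, all except zVAD alone, and all filled points lie below 0.

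For the addition of an inhibitor, the genotypes differed in 2 of the 9 genes when Nec-1 was added to LPS+zVAD (background 9.85%), Il1b by -8.27 log2 (SE 2.55, adjusted p = 0.0464) and Il1rn by -3.82 (SE 0.66, adjusted p = 0.00181). Il1b rested on the discordant pair, at -3.23 without replicate 2 (adjusted p = 0.119) and -13.30 without replicate 1 (adjusted p = 8.03e-07, against an array not well above background), and was also lost without any 1 of its other 6 arrays (adjusted p from 0.0726 to 0.127). Il1rn was at -3.12 and -4.52 in these settings and remained called. A fit of only the arrays compared gave adjusted p of 0.409 for Il1b and 0.229 for Il1rn. Il1a differed by -6.45 (adjusted p = 0.0680, and 0.0312 with the slide in the model or 0.0144 under normexp), by -2.83 without replicate 2 (adjusted p = 0.365) and by -10.08 without replicate 1 (adjusted p = 0.000224). Without replicate 1 the difference was also called for Tnf (-6.75), Tnfrsf1a (-0.89), Tnfrsf1b (-2.66) and Il18 (-3.26), and without replicate 2 for none of these. For zVAD added to LPS 0 of the 9 genes were called by limma (background 3.59%), as for zVAD added to IFNβ (0.00624%) and for Nec-1 added to IFNβ+zVAD (0.00624%), with 0 of the 9 at an unadjusted p under 0.05 in each. Without the discordant pair Il1b differed by -4.82 for Nec-1 added to IFNβ+zVAD (adjusted p = 0.0392). This is not an exact size, since Il1b was well above background on 1 of the 2 Ifnar1-/- IFNβ+zVAD+Nec-1 arrays. With the slide in the model, Il1rap differed by -1.14 with LPS+zVAD (adjusted p = 0.0457, against 0.559 without it) and by -1.60 with LPS+zVAD+Nec-1 (adjusted p = 0.00725, against 0.367). The second was -1.65 without replicate 1 (adjusted p = 0.383) and -1.54 without replicate 2 (adjusted p = 0.505).

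Within a treatment, the genotypes were compared in untreated cells and with LPS+zVAD, where genotype and slide cannot be told apart. In untreated cells (background 8.72%) Il1rn was higher in Ifnar1-/- cells by 2.72 log2 (6.58-fold, SE 0.46, adjusted p = 0.000877) and Il18bp lower by -1.46 (2.75-fold, adjusted p = 0.0173). The Il18bp call was lost without either WT untreated array (adjusted p = 0.0503 and 0.160) or without Ifnar1-/- untreated replicate 1 (0.212), and in a fit of only the arrays compared (0.0746). With LPS+zVAD (background 37.6%) Il18bp was lower by -3.31 (9.95-fold, adjusted p = 1.78e-06), Il1rn by -1.61 (adjusted p = 0.0102) and Tnfrsf1a by -0.57 (adjusted p = 0.0200). The Il1rn call was lost without WT LPS+zVAD replicate 2 (adjusted p = 0.0916) or Ifnar1-/- LPS+zVAD replicate 1 (0.0507), and the Tnfrsf1a call without any 1 of its 4 arrays (0.0506 to 0.0982) or in a fit of only the arrays compared (0.116). With each array set to a common 75th percentile, Tnfrsf1a differed by -1.15.

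Of 60 other genes listed for these pathways 46 were tested, and in WT cells LPS raised 27 and lowered 3 of them, with a median log2 fold change of 1.21, where 41.7% of all genes were called in either direction. Among TNF ligands and receptors 6 of 9 rose and 0 fell, led by Tnfsf9 (4-1BB ligand, 5.79), Cd40 (5.75) and Tnfsf15 (5.28). In the TNF receptor complex 9 of 15 rose, such as the adaptor Traf1 (4.79), the ubiquitin editor Tnfaip3 (4.55) and the caspase-8 regulator Cflar (3.003), and the deubiquitinase Cyld fell (-2.34). Of the 3 genes of TNF shedding, the protease Adam17 (1.11) and its partner Rhbdf2 (2.60) rose. Among IL-1 family receptors 3 of 7 were tested, of which Il1r1 rose (2.25) and the inhibitory Sigirr fell (-1.24). In IL-1 receptor signaling 4 of 8 rose, such as Irak3 (3.03), Peli1 (2.12) and Myd88 (2.01), and Irak1 fell (-0.88). For processing and release 5 of 7 rose, with Nlrp3 (3.30), Casp4 (2.92) and Casp1 (1.87) first. Of the other IL-1 family ligands 1 of 11 was tested, and it was not called.

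IFNβ raised 19 and lowered 5 of the 46 in WT cells (background 36.1%), whereas in Ifnar1-/- cells limma called 0 of all genes tested with IFNβ, with 255 at an unadjusted p under 0.05. In WT cells Tnfsf10 (TRAIL) rose by 6.88, Cd40 by 5.16, and in processing and release 5 of 7 rose, such as Casp4 (3.20) and the DNA sensor Aim2 (2.25). The difference between the genotypes in this change was called in 13 of the 46 (background 19.3%), of which 12 were lower in Ifnar1-/- cells: Tnfsf10 by -7.47 (adjusted p = 1.90e-05), Cd40 by -5.03 (adjusted p = 0.0377), Casp4 by -3.24 (adjusted p = 0.00252), Peli1 by -2.53 (adjusted p = 0.00374) and Aim2 by -2.34 (adjusted p = 0.000571) are examples. Irak4 was higher, by 1.41. LPS raised 23 and lowered 2 in Ifnar1-/- cells (background 25.2%).

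Adding zVAD to LPS lowered 13 and raised 5 of the 46 in WT cells, near the background of 34.6%. The ligand Tnfsf14 (LIGHT) rose by 6.37 (adjusted p = 7.96e-08), Tollip by 1.92 and the kinase Ripk1 by 1.18. The signaling inhibitor Irak3 fell by 2.67, the inflammasome adaptor Pycard by 1.99, Ikbkb by 1.54, Aim2 by 1.48 and Casp1 by 1.11. Adding Nec-1 to LPS+zVAD raised 13 and lowered 4 (background 28.4%), and in it Tnfsf14 (-3.59), Tollip (-1.72) and Ripk1 (-0.82) fell while Pycard (1.49), Aim2 (1.78), Casp1 (1.28) and Ikbkg (1.32) rose. These 2 comparisons share the LPS+zVAD arrays. In processing and release 4 of 7 fell with zVAD and 4 of 7 rose with Nec-1.

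The genes whose pattern over the 16 group means was most like each of the 9 were found by Pearson correlation among 13433 genes, as a description, since the groups share slides and the 2 genotypes differ as a block. Tnf was most like Ptgs2 (0.985), Cflar (0.973) and Plek (0.970). Il1a was most like Rab11fip1, Rnd1 and Adora2a (0.963 to 0.973), Il1b like Mapkapk2, Socs3 and Dyrk2 (0.969 to 0.976), and Il18 like Jak2, Olfr319 and Cp (0.970 to 0.978). Of the antagonists, Il1rn was most like Olfr1417, Naa15 and Ccl2 (0.972 to 0.981) and Il18bp like Gbp9 (0.995), Whsc1l1 (0.992) and Kat6a (0.991). Of the receptors, Tnfrsf1a was most like Dnaja1, Ccnj and Cd47 (0.974 to 0.981), Tnfrsf1b like Gm10404, Batf and St7 (0.968 to 0.971) and Il1rap like Zfp558, Dhx15 and Abi1 (0.956 to 0.958).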

How the data were processed

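RNA of 32 BMDM samples, labelled with 1 dye, was read on Agilent mouse arrays of 55681 probes. Per the file headers, the deposited intensity values were subtracted for local background and corrected for trends within the array by the scanner software. The authors also deposited log2 values of the same arrays, which they quantile-normalized with limma, with dim spots left empty. These served as an alternative.

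Intensities were taken to log2, quantile-normalized between arrays and averaged over the spots of a probe, without outlier spots. No spot was saturated. Probes well above background on at least 50% of the arrays were retained (21457 of 33140 with a gene symbol), and a gene with several (16033 genes in all) was read from its brightest one. Differences were tested with limma 3.58.1 (R 4.3.3) in 1 fit of 16 group means with 16 residual degrees of freedom, with p-values adjusted over all genes within each comparison by Benjamini-Hochberg, and an adjusted p under 0.05 was the limit for a call. The script was tested on simulated data. The number of arrays limits the precision.

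The slides come from the scanner headers, and each replicate number of a genotype is 1 slide. Deviations from the group means correlated between treatments with the same number in all 28 pairs (0.318 to 0.670 in WT, 0.168 to 0.578 in Ifnar1-/-). Arrays with the same number thus deviated together, and a shared slide and paired samples cannot be told apart here. Fits with slide as a replicate block gave, for example, an adjusted p of 0.00496 for Il1rn in WT cells with zVAD.

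Other settings tried were a shift of each array to its 75th percentile, normexp background correction with an offset of 50, no filter, only the arrays compared, the authors' values, the mean of all probes, and each array left out. All 9 genes were named in every group. From the pathway lists, called genes were named, those of largest change first, and the 3 most similar patterns per gene among genes whose group means ranged over at least 1 log2. The genes and lists were chosen with earlier results of these data known. No set or chance test was run.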

Additional observations from a re-analysis of the deposited data

Results flagged for a closer look

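In 19 cases the change with treatment differed between the genotypes by limma's interaction test, in each with the change in Ifnar1-/- cells below that in WT cells. Those against untreated cells share the untreated arrays and are not independent. For Il1rn the differences (Ifnar1-/- minus WT, log2) were -4.61 with LPS, -5.34 with IFNβ, -4.33 with LPS+zVAD, -6.35 with IFNβ+zVAD, -8.15 with LPS+zVAD+Nec-1, -6.85 with IFNβ+zVAD+Nec-1, and -3.82 when Nec-1 was added to LPS+zVAD. For Il18bp they were -2.40, -2.83, -1.85, -2.67, -2.22 and -2.30 for the first 6 of these treatments. For Tnfrsf1a they were -0.998 with IFNβ, -0.99 with IFNβ+zVAD, -1.06 with LPS+zVAD+Nec-1 and -1.06 with IFNβ+zVAD+Nec-1. Tnf differed by -4.62 with IFNβ+zVAD+Nec-1. Il1b differed by -8.27 when Nec-1 was added to LPS+zVAD, a value that uses the discordant pair of arrays.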

How the results depend on the processing

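No call was reversed by any alternative. Of 82 called changes, 81 remained called with arrays shifted to the 75th percentile, 78 with normexp, 76 without the filter, 65 with only the arrays compared, 70 of 72 with the authors' values (which hold no WT values of Il1a and Il18), 81 with the mean of probes, 73 of 73 without both Ifnar1-/- LPS+zVAD+Nec-1 arrays, and 58 with every array left out in turn. Beside the losses given in the report, Il18 in WT cells with LPS+zVAD was lost with normexp (adjusted p = 0.0607) and without the filter (0.0742), the fall of Tnfrsf1a with zVAD in Ifnar1-/- cells with the 75th percentile (0.0707), normexp (0.0507), no filter (0.0767) and the authors' values (0.0738), Il18bp in untreated cells with normexp (0.0535) and the authors' values (0.0739), and Tnfrsf1a between the genotypes with LPS+zVAD with the mean of probes (-0.42, 0.0918). Without the filter 4 more were lost, Il18 with IFNβ+zVAD+Nec-1 (0.0648) and Il1rn with LPS+zVAD against LPS (0.0774) in WT cells, and the differences between the genotypes of Tnf (0.0731) and Il1b (0.0734). The shift to the 75th percentile moved the median of all genes by over 0.1 log2 in 16 of 35 comparisons, by up to -0.35. In the fit with the replicate block all 82 remained and 22 more were called. Calls in Ifnar1-/- cells went from 10 to 17, for added zVAD from 3 to 6 and for added Nec-1 from 5 to 10, and the calls this gave stand beside their results. Calls for added zVAD were 1 without the filter, 5 with only the arrays compared and 8 without both discordant arrays, and calls for added Nec-1 were 1 with only the arrays compared. With 1 array left out, calls ranged from 9 to 18 in Ifnar1-/- cells (highest without Ifnar1-/- LPS+zVAD+Nec-1 replicate 2), from 1 to 5 for added zVAD (highest without either WT IFNβ+zVAD array, lowest without Ifnar1-/- LPS replicate 2 or either array of WT IFNβ or of Ifnar1-/- IFNβ, LPS+zVAD or IFNβ+zVAD), from 4 to 10 for added Nec-1 and from 15 to 36 for differences between the genotypes in a change (both highest without Ifnar1-/- LPS+zVAD+Nec-1 replicate 1), from 3 to 5 for the genotypes within a treatment (lowest without WT LPS+zVAD replicate 2 or Ifnar1-/- LPS+zVAD replicate 1), and from 31 to 41 in WT cells. The uncalled values that changed sign were Il1rap in WT cells with IFNβ+zVAD (from -0.13 without WT IFNβ+zVAD replicate 2 to 1.77 without replicate 1), Tnf in Ifnar1-/- cells with LPS+zVAD+Nec-1 (from -0.019 without replicate 1 to 5.95 without replicate 2) and the difference of Il1rap with LPS+zVAD (from -2.42 without WT LPS+zVAD replicate 1 to 0.14 without replicate 2). The cause was not tested. Where a fit leaves 1 array in a group, that array is assumed to vary like the other groups. Il1a, near background in untreated cells, has only a bound there in Ifnar1-/- cells, and that bound depends on the background correction.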
